A study of Mus musculus with 8 samples.

Results

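The genes described here are 45 members of the mitogen-activated protein kinase (MAPK) pathway and its feedback circuit, looked up in tables of DNA methylation differences from mouse colon organoids. The list of names was chosen with earlier results of these data known, so shares of members set beside all genes are descriptive. Each member was given the window of its RefSeq span in the mouse build GRCm38 plus 2 kb on either side, and every listed 200 bp tile that overlaps the window was counted for it. Of the 45 genes, 44 could be placed among 21775 placed protein-coding genes in all, and Spry3 could not, because its span on the X chromosome begins at 101352 while the first listed tile on any autosome or the X begins at 3018601. The members are 6 receptors and ligands, 7 Ras GTPases and kinases, 8 regulators of Ras, 17 feedback inhibitors (16 of them placed) and 7 target transcription factors.

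Organoids were grown from proximal colon crypts of male mice about 40 days old that carry 1 Cre-activable BrafV600E allele (Braf+/LSL), and methylation was measured by reduced representation bisulfite sequencing (RRBS), an assay of CpG-rich restriction fragments. The 8 libraries form 4 groups, each with 1 library of organoid line 1 and 1 of organoid line 3, and all come from Braf+/LSL tissue. In the first group lentiviral Cre had switched on BrafV600E, the constitutively active kinase, and the organoids, selected for growth in Base medium that lacks stem-cell niche factors, were taken at 5 months. Its controls received the lentiviral backbone alone (empty vector, EV) and stayed in full medium for 5 months. The third group is EV organoids in full medium for 12 months (line 1) or 14 months (line 3), and its controls are EV organoids in full medium for 2 months. Every library is labelled with a final 3 weeks of culture. Full medium holds Wnt3a, R-Spondin, Noggin and EGF, per the labels. The first comparison thus joins an oncogene of this pathway with Cre, a change of medium and selection for growth in Base medium. Their parts cannot be told apart. Only within-line differences between 1 library and 1 library were used, so the lines are the only replicates and no test over samples was possible. The tables hold only tiles with a difference of 20 percentage points or more and q-values up to 0.01, without read counts: depth is unknown, and a tile that is absent from a table may be uncovered as well as below these limits. Methylation differences alone were used, so neither the activation of Braf nor the colon identity of the cells was checked.

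Labels conflict for a pair of libraries, and the titles were followed: the line 1 BrafV600E library has line 3 in its source name, and the line 3 library titled 14 months is tagged 2 months, while the design text of the series gives it as long-cultured. Over all tiles listed in both lines, direction was the same for 73.9% of 5934 tiles with BrafV600E and for 68.5% of 3220 tiles with long culture in the authors' deposited tables. Between the BrafV600E and the long-culture comparisons, which share no library, the same-direction share was 48.9% of 2384 tiles within line 1 and 51.9% of 6964 tiles within line 3, but 80.4% of 5432 tiles for BrafV600E in line 1 with long culture in line 3. For BrafV600E in line 3 with long culture in line 1 it was 71.2% of 3268 tiles. The part of the label conflicts in these shares was not tested.

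In this pathway, growth factors such as amphiregulin (Areg) and epiregulin (Ereg) bind receptor tyrosine kinases of the EGFR family, exchange factors load Ras with GTP, and Ras activates the RAF, MEK and ERK kinases in turn. ERK raises transcription factors of the AP-1, EGR and PEA3 groups and also the genes of its own inhibitors: the dual-specificity phosphatases (Dusp) that strip phosphate from MAP kinases, and the Sprouty and Spred proteins that act upstream at Ras. In the intestinal epithelium the pathway is known for carrying the EGF signal that crypt cells need to divide. In the colon, BRAF V600E is known from serrated tumours, which often carry dense methylation of CpG islands. Methylation of a CpG-rich start is commonly associated with a silent gene, while within gene bodies it is found at active genes too.

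Among the members, the annotated starts of Erbb4, Dab2ip and Rasgrf2 carried listed tiles that are described at length, so the RefSeq sequences of their start windows (GRCm38.p6, 250 bases before to 50 after the start) are shown, 5′ to 3′, with each CpG, the dinucleotide whose cytosine is measured, in capitals. Erbb4 and Dab2ip have a tile in the window listed in both lines with BrafV600E, and Rasgrf2, added after its values were seen, has window tiles in 1 line of each comparison.
Erbb4, chr1:69108010-69108309, minus strand: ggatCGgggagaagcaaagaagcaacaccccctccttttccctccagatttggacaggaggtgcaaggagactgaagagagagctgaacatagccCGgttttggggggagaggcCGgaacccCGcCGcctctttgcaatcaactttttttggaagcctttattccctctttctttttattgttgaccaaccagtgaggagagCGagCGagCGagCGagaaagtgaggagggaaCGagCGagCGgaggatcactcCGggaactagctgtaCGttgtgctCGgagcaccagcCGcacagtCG
Dab2ip, chr2:35582590-35582889, plus strand: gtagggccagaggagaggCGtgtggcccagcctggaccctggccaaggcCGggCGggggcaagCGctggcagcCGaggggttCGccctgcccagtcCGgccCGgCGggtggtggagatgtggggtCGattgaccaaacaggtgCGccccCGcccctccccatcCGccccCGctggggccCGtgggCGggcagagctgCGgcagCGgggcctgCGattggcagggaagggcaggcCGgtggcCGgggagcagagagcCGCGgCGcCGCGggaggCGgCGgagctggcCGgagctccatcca
Rasgrf2, chr13:92131779-92132078, minus strand: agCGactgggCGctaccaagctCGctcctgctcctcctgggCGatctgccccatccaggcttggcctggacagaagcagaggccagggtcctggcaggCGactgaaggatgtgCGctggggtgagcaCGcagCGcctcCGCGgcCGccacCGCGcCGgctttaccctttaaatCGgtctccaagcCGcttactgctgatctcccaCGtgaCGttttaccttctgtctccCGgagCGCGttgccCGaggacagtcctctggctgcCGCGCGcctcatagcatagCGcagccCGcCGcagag
The Erbb4 window holds 17 CpG sites, of which 15 lie in the last 191 bases covered by the tile at chr1:69108001-69108200. The Dab2ip window holds 29 CpG sites, and the tile at chr2:35582801-35583000 covers its last 89 bases with 11 of them. In Rasgrf2, 21 of 28 CpG sites lie under the tile at chr13:92131801-92132000 and 3 under the last 22 bases, which belong to the tile at chr13:92131601-92131800.

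Across both comparisons 26 of the 44 placed members (59.1%) had at least 1 listed tile, beside 45.1% of all placed protein-coding genes. The share depends on length, since long genes hold more tiles. Of 15 members under 10 kb, 33.3% had a tile, beside 28.5% of all genes of that length. From 10 to 100 kb it was 78.3% of 23 members, beside 49.1%, and over 100 kb it was 50.0% of 6 members, beside 80.3%. The 139 listings fall on 89 distinct tiles, 123 of them inside the gene's span, and Erbb4, Dab2ip, Rasgrp2 and Rasal1 together account for 72 listings (51.8%). Listings per 100 kb of window came to 4.31 over the members and 4.61 over all protein-coding windows. Of the 139 listings, 27 also lie in the window of another annotated gene.

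**Figure D1:**
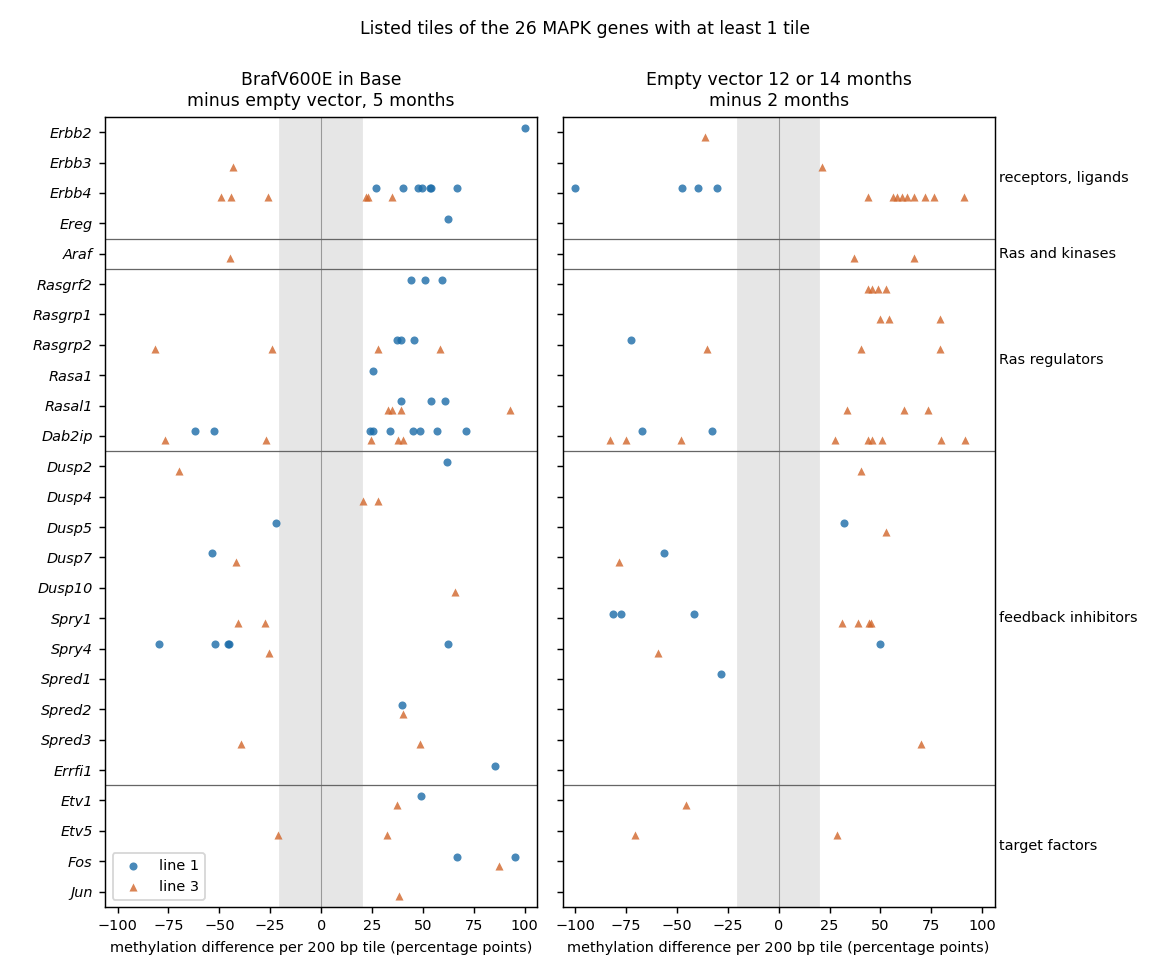
Each point is 1 listed 200 bp tile of a member, placed by its methylation difference in percentage points (treated or long-cultured minus control), for line 1 (circles) and line 3 (triangles), with the BrafV600E comparison on the left and long culture on the right. The grey band covers differences under 20 points, which the tables leave out. Erbb4 tiles with long culture lie below zero in line 1 and above zero in line 3.

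The 18 placed members with no listed tile include most of the core cascade. Of the Ras GTPases and kinases, Hras, Nras, Braf, Map2k1, Map2k2 and Mapk3 had 0 tiles in every table, leaving only Araf. Thus 14.3% of the 7 had a tile, beside 45.1% of all genes. Hras, Nras and Mapk3 span under 10 kb, where 28.5% of all genes had a tile. Map2k1 and Map2k2 span 10 to 100 kb, where it was 49.1%, and Braf over 100 kb, where it was 80.3%. The differences from these shares were not tested. Braf itself spans 122428 bases (chr6:39603231-39725658) and its start window holds 30 CpG sites. The receptor gene Egfr and the ligand gene Areg were also without a tile, as were the Ras GTPase-activating genes Nf1 and Rasa2. Among feedback inhibitors, Dusp1, Dusp6, Dusp8, Dusp9 and Spry2 had none. Dusp6, which encodes the ERK phosphatase often used as a readout of the pathway, has 19 CpG sites in its start window. The targets Etv4, Egr1 and Fosl1 completed the set. For these genes the tables give no difference, which is not evidence of equal methylation.

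BrafV600E organoids in Base medium were set against EV organoids in full medium at 5 months. The comparison asks whether the genes of the pathway differ in methylation when oncogene, Cre, medium and selection differ together. Gains in both lines were listed for 7 members, namely the receptor gene Erbb4, the Ras regulators Dab2ip, Rasal1 and Rasgrp2, the inhibitor gene Spred2 and the targets Etv1 and Fos. Losses in both lines were listed for Dab2ip, Dusp7 and Spry4. The 7 members are 15.9% of the 44, beside 11.4% of all genes with a gain in both lines, and the 3 are 6.82%, beside 6.10% with a loss in both. Per line, 14 members had a gain in line 1 and 12 in line 3, beside 17.9% and 21.0% of all genes, which are 31.8% and 27.3% of members. Losses were listed for 4 members in line 1 and 11 in line 3, or 9.09% and 25.0%, beside 10.6% and 20.5% of all genes. A gain in either line was listed for 19 members and 6005 of all genes, and in both lines for 7 and 2472. For losses the counts were 12 members and 5433 genes in either line, and 3 and 1328 in both. No member count here was tested against chance, and the members' median gain of 44.7 points and median loss of -44.7 points lie beside medians of 42.5 and -44.3 points over all tiles in protein-coding windows of the authors' deposited tables.

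By role, gains with BrafV600E in either line were listed for 3 of 6 receptors and ligands, 0 of 7 Ras GTPases and kinases, 5 of 8 Ras regulators, 7 of 16 feedback inhibitors and 4 of 7 target factors, which makes 19 of 44 members, beside 27.6% of all genes. Losses were listed for 2 receptors and ligands, 1 kinase, 2 Ras regulators, 6 feedback inhibitors and 1 target factor, or 12 of 44 members, beside 25.0% of all genes. By tiles, feedback inhibitors had 9 gains and 12 losses, Ras regulators 26 and 6, receptors and ligands 12 and 4, and target factors 7 and 1 in the authors' deposited tables, beside 16582 gains and 12712 losses over all protein-coding windows. The roles differ in length, with a median span of 83.6 kb for Ras regulators, 12.3 kb for feedback inhibitors and 18.8 kb for GTPases and kinases. These counts are small and the differences between roles were not tested.

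**Figure D2:**
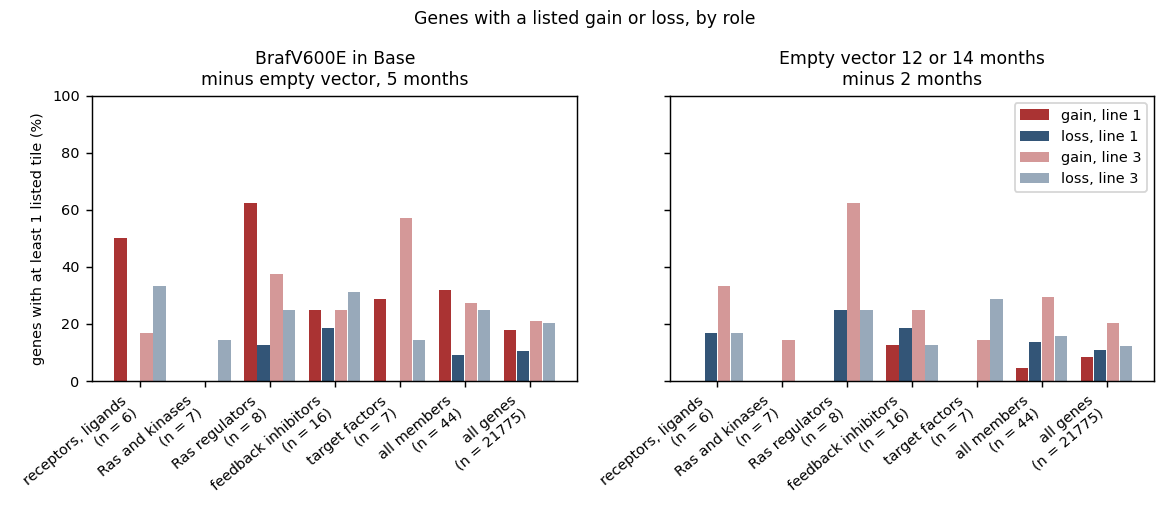
Bars give the percentage of genes with at least 1 listed gain (red) or loss (blue) in line 1 (dark) and line 3 (pale), for each role, for the 44 placed members and for the 21775 placed protein-coding genes. The BrafV600E comparison is on the left and long culture on the right. Ras regulators reach 62.5% for gains in line 1 with BrafV600E and in line 3 with long culture.

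Erbb4, which encodes a receptor for neuregulins and spans 1076693 bases on chromosome 1, gained methylation around its start in both lines. In line 1, per the authors' deposited tables, 7 tiles between 42 bp before and 2159 bp after the start gained 26.9 to 66.6 points, with a median of 49.6. In line 3, per the authors' deposited tables, 3 tiles of that stretch gained 22.2, 34.6 and 23.1 points, each at coordinates listed in line 1 as well. The gain was thus smaller in line 3 at each shared tile, where line 1 had 53.7, 53.7 and 47.8 points, per the authors' deposited tables. The tile under the printed start sequence gained 47.8 points in line 1 (q = 3.13e-46) and 23.1 points in line 3 (q = 3.80e-14) in the authors' deposited tables. Line 3 also had 3 lost tiles far inside the gene, at -26.1, -44.4 and -49.4 points, per the authors' deposited tables, at distances of 1068, 798 and 639 kb from the start.

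The other receptors and ligands rested on 1 tile each. For Erbb2, the co-receptor of the family, a tile 16.4 kb after the start differed by 100 points in line 1 (q = 0.000891), per the authors' deposited tables, so every read was methylated in the BrafV600E library and none in the EV library. Ereg gained 62.5 points in line 1 at a tile 817 bp outside its span, which the gene Gm19610 shares, and Erbb3 lost 43.2 points in line 3 at a tile shared with Pa2g4, both per the authors' deposited tables. Araf, the one kinase gene with a tile, lost 44.9 points in line 3, per the authors' deposited tables, 28.8 kb before its RefSeq start but inside its span on the X chromosome.

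Ras regulators carried the largest number of listings, 57 of 139, and 25 of these belong to Dab2ip. Per 100 kb of window, however, feedback inhibitors had the most, 9.73 listings, beside 5.84 for Ras regulators and 5.22 for target factors. Receptors and ligands had 2.32, and Ras GTPases and kinases 0.938. Rasgrf2, an exchange factor that activates Ras upon calcium signals, gained methylation in line 1 across its start, with 44.3, 50.8 and 59.2 points at 3 adjacent tiles in the authors' deposited tables, and had 0 tiles in line 3. The last of these values belongs to the tile that covers 21 of the CpG sites printed above (q = 4.17e-31 in the authors' deposited tables). Rasgrp2, an exchange factor that acts mainly on Rap1, gained at the tile chr19:6398601-6398800 in both lines, by 37.1 points in line 1 and 27.9 points in line 3, per the authors' deposited tables. That tile lies 157 bp outside the span and also in the window of Pygm, as does the next tile, which gained 39.4 points in line 1 alone per the authors' deposited tables. The second annotated start of Rasgrp2 gained 45.8 points in line 1, and in line 3 a tile 396 bp after it gained 58.4 points, while tiles further inside, shared with Gm14965, lost 24.4 and 81.8 points, all in the authors' deposited tables. Rasgrp1 was not listed in this comparison.

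Rasal1, a GTPase-activating protein that switches Ras off, gained methylation in both lines and lost none. The authors' deposited tables give 54.1, 39.0 and 61.1 points in line 1 and 32.6, 92.9, 39.1 and 34.7 points in line 3. The tile with 61.1 points lies 804 bp outside the span, in the window of Dtx1 as well. Tiles at chr5:120666201-120666400 and chr5:120674601-120674800 were shared by the lines, with 54.1 and 39.0 points in line 1 against 39.1 and 34.7 points in line 3, per the authors' deposited tables. Dab2ip, another GTPase-activating protein for Ras, had 9 listed tiles in line 1 and 5 in line 3. Upstream of the printed start, tiles centred 940 and 740 bp before it gained 48.7 and 56.8 points in line 1 and 24.6 and 40.4 points in line 3, per the authors' deposited tables. At the printed start itself the lines parted, since the tile there gained 45.1 points in line 1 and lost 27.2 points in line 3, per the authors' deposited tables. Within line 1, the tile 261 bp after the start gained 71.0 points and its neighbour at 461 bp lost 52.5 points, per the authors' deposited tables. The other Dab2ip tiles of line 1 gained 25.4, 24.1 and 33.7 points or lost 62.1 points, and those of line 3 lost 76.7 points or gained 38.0 points, per the authors' deposited tables. Dab2ip has 4 annotated starts, and the tile with 24.1 points lies in the window of a start other than the printed one (chr2:35621731-35622030). Rasa1 gained 25.4 points at 1 tile in line 1, per the authors' deposited tables, 386 bp after its start.

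**Figure D3:**
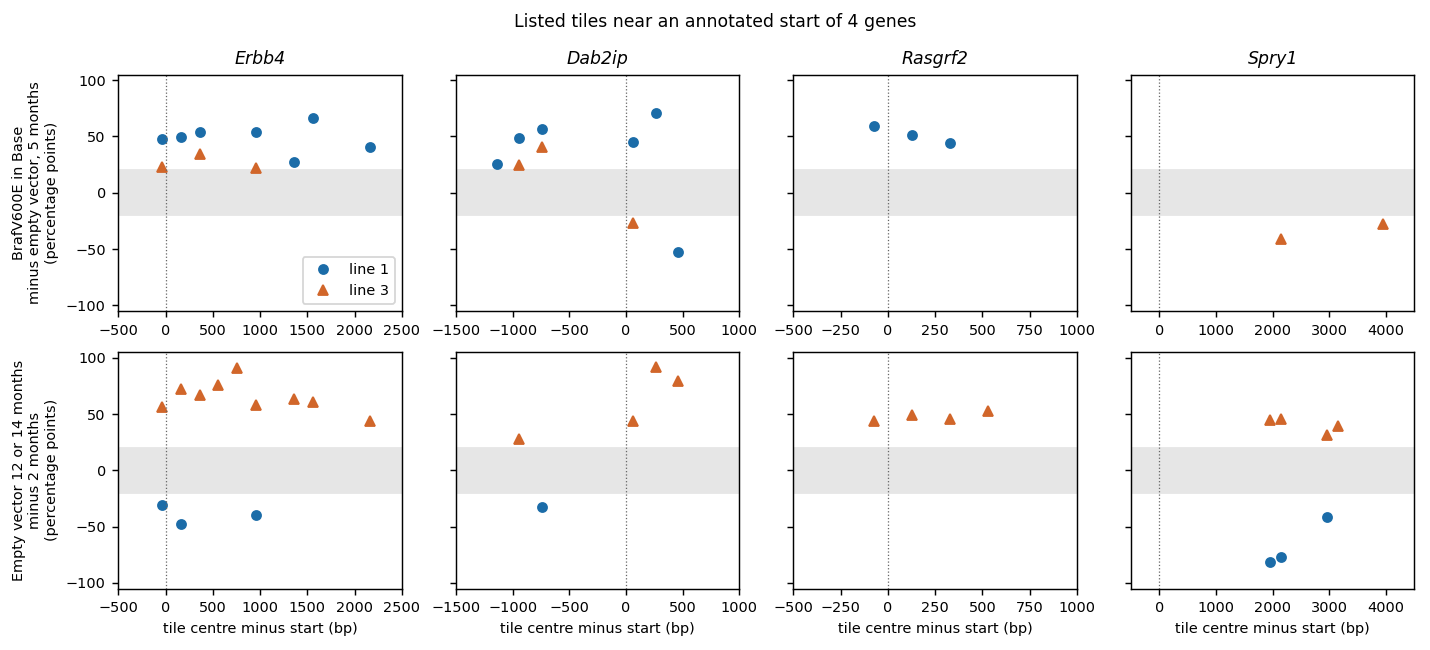
Each point is a listed tile of Erbb4, Dab2ip, Rasgrf2 or Spry1, placed by the distance of its centre from an annotated start in bp (positive values lie in the direction of transcription) and by its methylation difference in percentage points. The upper row shows BrafV600E in Base minus EV at 5 months and the lower row long culture minus 2 months, with circles for line 1, triangles for line 3 and a grey band for the range not listed. Erbb4 shows gains in both lines above and opposite directions below.

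Among feedback inhibitors, Dusp7, which encodes a cytoplasmic ERK phosphatase, lost methylation at 1 tile in both lines, 53.6 points in line 1 (q = 0.00327) and 41.7 points in line 3 (q = 0.000478) in the authors' deposited tables. The tile at chr9:106370001-106370200 lies 1469 bp after the start, inside the gene, and not in the start window, which holds 41 CpG sites. Spry4, a Sprouty inhibitor on chromosome 18, lost 45.2, 45.5, 52.4 and 79.5 points at 4 tiles in line 1 and gained 62.1 points at another, in the authors' deposited tables. In line 3 it lost 25.6 points at a tile that also lost in line 1, per the authors' deposited tables. That tile and 2 of the other lost tiles lie in the window of the neighbouring gene Arhgap26 as well, so they cannot be assigned to Spry4 alone. The gained tile lies 1647 bp outside the span of Spry4, in the window of Gm19100 as well. Spred2 gained 39.6 points in line 1 and 40.0 points in line 3, per the authors' deposited tables, at different tiles.

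The remaining inhibitors were listed in 1 line or in opposite directions. Errfi1, whose product binds and inhibits EGFR-family kinases, gained 85.3 points in line 1 at 305 bp after the first of its starts (q = 2.06e-09) in the authors' deposited tables, in a window shared with 1700045H11Rik. Dusp2, a nuclear phosphatase of MAP kinases, gained 62.0 points in line 1 at 542 bp after its start and lost 69.8 points in line 3 at 1542 bp in the authors' deposited tables. Both of these tiles also lie near Astl. Dusp5, which acts on nuclear ERK, lost 22.2 points in line 1 near its start, in the authors' deposited tables. In line 3, the authors' deposited tables list gains for Dusp4 (28.1 and 20.4 points) and Dusp10 (65.9 points), losses for Spry1 (-40.9 and -27.6 points), and both directions for Spred3 (48.4 and -39.5 points).

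Fos, an immediate-early gene and AP-1 subunit, showed the largest difference of any tile listed in both lines among the members. The tile at chr12:85476401-85476600, inside the gene and 2611 bp after its start, gained 95.5 points in line 1 (q = 1.41e-07) and 87.5 points in line 3 (q = 0.000112) in the authors' deposited tables. A difference of that size fixes the levels within narrow limits: at least 95.5% in the BrafV600E library and at most 4.55% in the EV library in line 1, and at least 87.5% in the BrafV600E library and at most 12.5% in the EV library in line 3, derived from the authors' deposited tables. The adjacent tile gained 66.7 points in line 1, per the authors' deposited tables. No tile was listed in the Fos start window, which holds 20 CpG sites. Etv1, a PEA3-group ETS factor, gained 48.8 points in line 1 and 37.1 points in line 3 at one tile 73.0 kb after its nearest start, in the authors' deposited tables. Jun gained 38.5 points in line 3 at a tile shared with its antisense gene Junos, and Etv5 gained 32.2 points and lost 21.2 points at different tiles of line 3 in the authors' deposited tables.

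EV organoids kept for 12 or 14 months were set against EV organoids at 2 months, which asks how the same genes differ after long culture without active BrafV600E. The Dusp7 tile lost methylation again in both lines, whereas Erbb4 and Spry1 lost it in line 1 and gained it in line 3. A gain in both lines was listed for Dusp5 alone (2.27% of members, beside 6.53% of all genes), and a loss in both for Dab2ip, Dusp7 and Rasgrp2 (6.82%, beside 4.09%). Line 1 had 2 members with gains and 6 with losses, or 4.55% and 13.6%, beside 8.59% and 10.9% of all genes. Line 3 had 13 with gains and 7 with losses, or 29.5% and 15.9%, beside 20.4% and 12.3%. Of the members' listings 14.3% of 14 were gains in line 1 and 80.9% of 47 in line 3, beside 47.9% and 78.2% of tiles in protein-coding windows of the authors' deposited tables. Of the 14 in line 1, 4 belong to Erbb4 and 3 to Spry1, and neighbouring tiles of 1 gene are not independent. A gain in either line was listed for 14 members and 4886 of all genes, and in both lines for 1 and 1422. For losses the counts were 10 members and 4157 genes in either line, and 3 and 891 in both.

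At Erbb4, 9 tiles around the start gained 43.6 to 91.0 points in line 3, per the authors' deposited tables, with a median of 63.1, and 3 tiles of that stretch lost 30.4, 39.4 and 47.6 points in line 1. All 3 were also listed in line 3, with 56.3, 58.0 and 71.9 points, per the authors' deposited tables. One more Erbb4 tile, deep inside the gene, lost 100 points in line 1, per the authors' deposited tables. At Spry1, whose product blocks Ras activation downstream of receptors, 3 tiles in the gene lost 81.3, 77.4 and 41.4 points in line 1 and gained 44.4, 45.5 and 31.1 points in line 3, per the authors' deposited tables. One further Spry1 tile gained 39.0 points in line 3, per the authors' deposited tables. The Rasgrp2 tile at chr19:6398801-6399000 lost 72.8 points in line 1 and gained 79.3 points in line 3, per the authors' deposited tables.

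These opposite differences set limits on the levels, because a library that lost x points held at least x percent methylation and one that gained y points ended with at least y percent. At the Rasgrp2 tile the 2-month libraries must have differed by at least 52.1 points, line 1 being higher, and the long-cultured libraries by at least as much with line 3 higher, as derived from the authors' deposited tables. The same reasoning on the authors' deposited tables gives at least 25.6 and 22.9 points at the first 2 Spry1 tiles and 19.5 points at the Erbb4 tile chr1:69107801-69108000. At the other 3 opposite tiles of Erbb4 and Spry1 the differences are too small to fix an order of the lines. In all, 7 of the 8 member tiles listed in both lines with long culture had opposite directions, in 3 genes, where 68.5% of all tiles listed in both lines moved the same way. That share pools both directions, whereas all 8 member tiles were losses in line 1. Of all tiles lost in line 1 and listed in both lines, 909 gained in line 3 and 451 lost. Opposite directions were thus the more common outcome for such tiles, and neighbouring tiles of 1 gene are not independent. The line 3 side of each of these values rests on the library with the conflicting culture time.

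**Figure D4:**
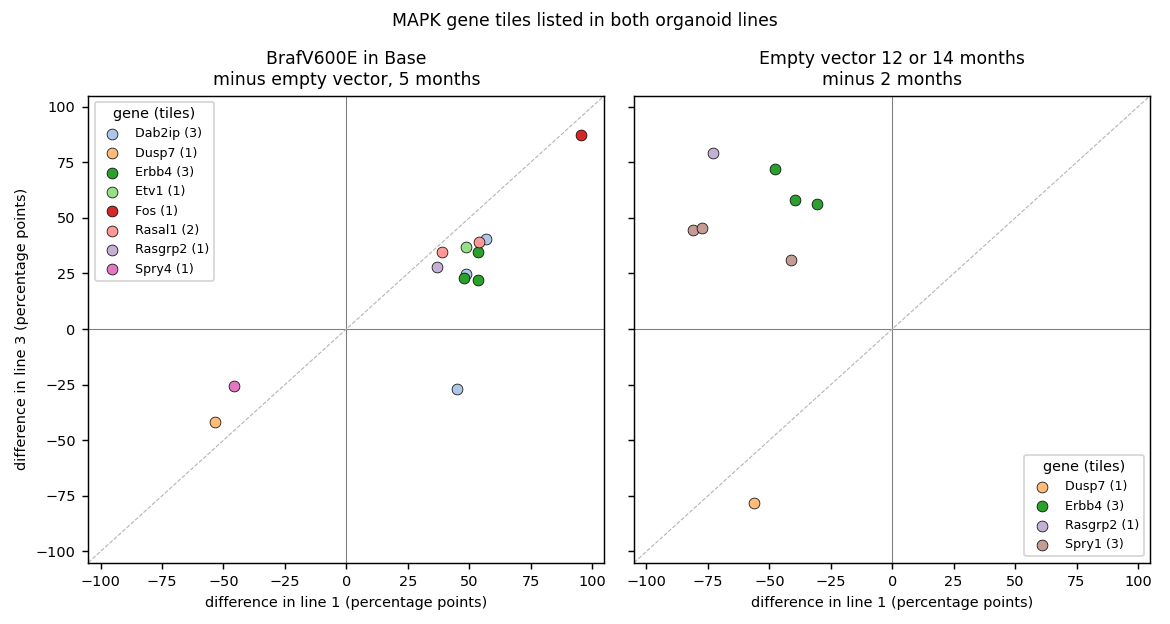
Each point is a member tile listed in both organoid lines, with its methylation difference in line 1 on the horizontal axis and in line 3 on the vertical axis, in percentage points, and the dashed line marks equal differences. With BrafV600E (left) 12 of 13 tiles had the same direction, and with long culture (right) 1 of 8 did.

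Other Ras regulators gained methylation in line 3 with long culture. Rasgrf2 gained 52.8, 45.6, 48.8 and 43.9 points at 4 adjacent tiles across its start and had 0 tiles in line 1, per the authors' deposited tables. Rasgrp1, an exchange factor best known from lymphocytes, gained 54.2 and 79.4 points at its start and 49.7 points 50.0 kb inside, all in line 3, per the authors' deposited tables. Rasal1 gained 33.8, 73.3 and 61.7 points in line 3, per the authors' deposited tables. Dab2ip gained 27.4, 43.9, 91.7 and 79.5 points at 4 tiles around the printed start in line 3, and line 1 lost 32.9 points at a tile between the first 2 of these, in the authors' deposited tables. Further inside Dab2ip, line 3 lost 75.0, 47.8 and 83.0 points and gained 50.7 and 45.8, and line 1 lost 67.3 points, in the authors' deposited tables. A loss of 35.0 points at 1 tile put Rasgrp2 among the members with a loss in both lines, where line 3 also gained 40.4 points at the tile shared with Pygm, in the authors' deposited tables.

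Among feedback inhibitors, the Dusp7 tile lost 56.3 points in line 1 (q = 0.00973) and 78.3 points in line 3 (q = 1.49e-06) with long culture in the authors' deposited tables, after the losses with BrafV600E. It is 1 of 21 tiles lost in all 4 within-line comparisons, among 594 listed in all 4, of which 213 gained in all. A pair of Erbb4 tiles, including the one under the printed start, was also listed in all 4, with gains in 3 and a loss for long culture in line 1. Dusp5 gained 32.0 points before its start in line 1 and 52.5 points 9.56 kb inside in line 3, Spred1 lost 28.1 points in line 1 and Dusp2 gained 40.4 points in line 3, per the authors' deposited tables. Spred3 gained 69.7 points in line 3 at the tile that gained with BrafV600E, in the authors' deposited tables, and the gene Ggn shares it. Spry4 gained 49.8 points in line 1 and lost 59.0 points in line 3 at different tiles, each of which had moved the other way in line 1 with BrafV600E, in the authors' deposited tables. The gained tile lies in the window of Arhgap26 as well, and the lost tile, 1647 bp outside the span, in that of Gm19100.

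Target factors and kinases had few tiles with long culture. Fos and Jun had none. The Etv1 tile that gained in both lines with BrafV600E lost 45.6 points in line 3, and Etv5 gained 28.8 and lost 70.6 points in line 3, per the authors' deposited tables. The Araf tile that lost 44.9 points with BrafV600E in line 3 gained 37.2 points with long culture in line 3, and a tile next to Syn1 gained 66.7 points, in the authors' deposited tables. Erbb2 lost 36.4 points at a tile shared with Mien1, and Erbb3 gained 21.4 points, both in line 3, per the authors' deposited tables.

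Member tiles were also set side by side between the comparisons. Of 21 member tiles listed both with BrafV600E in line 1 and with long culture in line 3, 18 had the same direction, in Dab2ip, Dusp2, Dusp7, Erbb4, Rasal1, Rasgrf2 and Rasgrp2, beside 80.4% of all tiles shared by those tables, and 3 moved in opposite directions, in Dab2ip, Etv1 and Spry4. The Rasgrf2 start tile, for example, gained 59.2 points with BrafV600E in line 1 and 43.9 points with long culture in line 3, per the authors' deposited tables. Within line 1, 1 of 7 shared member tiles had the same direction in the 2 comparisons, and within line 3, 10 of 15, beside 48.9% and 51.9% of all tiles. For BrafV600E in line 3 with long culture in line 1, 2 of 5 shared member tiles had the same direction, beside 71.2% of all tiles. Tiles of 1 gene are neighbours and not independent, and these counts carry no test.

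Listed gains lay near a start more often than listed losses, among members and among all genes. Starts were available from RefSeq for 34 of the 44 placed members, in 41 windows. With BrafV600E, 55.8% of 43 listed gains and 16.7% of 18 listed losses lay within 1 kb of a start, beside 42.3% and 23.1% for all protein-coding genes. With long culture the shares were 54.3% of 35 gains and 30.0% of 20 losses, beside 52.9% and 25.4%. Most member gains within 1 kb came from a few genes, so their tiles are not independent. These were Erbb4, Dab2ip, Rasgrf2 and Rasgrp2 with BrafV600E, and Erbb4, Dab2ip and Rasgrf2 with long culture. A gain inside a start window was listed for Dab2ip, Erbb4, Rasgrf2 and Rasgrp2 with BrafV600E and for Dab2ip, Erbb4, Rasgrf2 and Rasgrp1 with long culture, in each case 11.8% of the 34, beside 7.44% and 8.01% of all genes with a start. The letters CCGG are the site of MspI, an enzyme common in this assay but not named in the sources used here, read the same on both strands and contain a CpG. They occurred in 38 of the 41 member windows (92.7%) and in 52.8% of all 32851 windows. The median number of CpG sites was 26 per member window and 7 over all windows of the RefSeq table, which also holds genes that code for no protein. It was 24.5 in the 6 member windows with a listed tile and 26 in the 35 without.

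Of 76 further genes of the pathway, listed by the same rule, 60.5% had a tile in at least 1 comparison, beside 45.1% of all genes. By length it was 46.7% of 15 genes under 10 kb, 56.8% of 44 genes from 10 to 100 kb and 82.4% of 17 genes over 100 kb, beside 28.5%, 49.1% and 80.3% of all genes of those lengths. With BrafV600E, 11 (14.5%) had a gain and 13 (17.1%) a loss in both lines, beside 11.4% and 6.10% of all genes, and with long culture 6 (7.89%) and 5 (6.58%), beside 6.53% and 4.09%. Ets1, an ETS factor that ERK phosphorylates, led the gains in both lines without an opposite tile, at means of 86.8 and 64.3 points over 2 tiles each for line 1 and line 3, per the authors' deposited tables with BrafV600E. Fosb, a relative of Fos, had losses with means of -22.3 and -31.7 points for line 1 and line 3 with BrafV600E, per the authors' deposited tables. With long culture the exchange factor gene Rasgrf1 gained 64.3 and 65.5 points, Egr2 33.5 and 46.4 points and the receptor gene Pdgfra 51.9 and 75.0 points, while the receptor gene Fgfr2 lost 47.4 and 37.5 points for line 1 and line 3, per the authors' deposited tables. This list, too, was chosen with earlier results of these data known.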

How the data were processed

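The authors deposited 8 tables, the gains and the losses of 4 within-line comparisons of reduced representation bisulfite libraries (50 bp single-end reads, about 10% phiX, per the labels). Per the file headers, each row is a 200 bp tile with a p-value and a q-value, as deposited by the authors, and a methylation difference in percent (percentage points) in the layout of methylKit. The submitters' processing notes name methylKit 1.7.4, Bismark 0.14.3, Trim Galore 0.4.4 and FastQC 0.11.7, and give both GRCm38 and mm10 as builds. How many reads a tile needed, and the bisulfite conversion, is not given in the sources used here. Listed differences start at 20 points and q-values reach 0.01, so depth is unknown and smaller differences are not seen.

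Tiles were assigned to gene windows (RefSeq GRCm38.p6 span, 2 kb either side) in Python 3.11.15 with pandas 2.3.3, tested on simulated data. The background is every protein-coding gene placed on an assembled chromosome, and genes whose span begins before base 3000000 of an autosome or the X were not placed. Strand and starts came from RefSeq start windows. The members, roles and gene lists were chosen with earlier results of these data known. Members were given in full where listed in both lines in 1 direction with no opposite tile, at the same tile in both lines, or in opposite directions, or where they had most tiles of their role. Braf, Fos, Spry4, Dusp6, Egfr, Erbb4, Areg and Ereg were looked up in any case. Further pathway genes were named if listed in 1 direction alone in both lines, ranked by the smaller tile count and then the smaller mean, the first 3 per direction. One gene that this rule names is not reported here. Alternatives changed the limits, the window and the lines required. With a single library on each side of a table, the q-values concern those libraries and not the conditions.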

Additional observations from a re-analysis of the deposited data

Results flagged for a closer look

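In the same comparison, every listed tile of 4 members moved one way in line 1 and the opposite way in line 3, and the difference between the lines was not tested. With BrafV600E, Dusp2 differed by 62.0 points in line 1 and -69.8 points in line 3, at 1 tile each, in the authors' deposited tables. With long culture, the mean for Erbb4 was -54.3 points in line 1 (4 tiles) and 65.3 points in line 3 (9 tiles), per the authors' deposited tables. For Spry1 it was -66.7 points in line 1 (3 tiles) and 40.0 points in line 3 (4 tiles), per the authors' deposited tables. Spry4 differed by 49.8 points in line 1 and -59.0 points in line 3 with long culture, at 1 tile each, in the authors' deposited tables. Erbb4 and Spry1 share tiles between the lines, whereas the Dusp2 and Spry4 tiles differ in position. The Spry4 tiles also lie in the windows of Arhgap26 (line 1) and Gm19100 (line 3), and both Dusp2 tiles in that of Astl. No count of such members over all genes is given here, so the 4 cannot be called unusual. Among all tiles listed in both lines, 73.9% of 5934 with BrafV600E and 68.5% of 3220 with long culture had the same direction, and the rest opposite ones. These shares are for tiles at the same coordinates, so they do not apply to Dusp2 and Spry4. Of such tiles lost in line 1 with long culture, as in Erbb4 and Spry1, 909 gained and 451 lost in line 3. The line 3 values with long culture rest on the library with the conflicting culture time. The line 1 value of Dusp2 rests on the BrafV600E library that has line 3 in its source name. The part of these label conflicts was not tested.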

How the results depend on the processing

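Counts of members listed in both lines are small and move with the settings. For gains with BrafV600E the count of 7 became 4 at 40 points or more, within 2 kb of a gene end, with at least 2 tiles per line, or with no opposite tile in the line, and was 6 or 7 in the other 6 settings that kept both lines. For losses with BrafV600E the count of 3 became 1 with at least 2 tiles or with no opposite tile. For gains with long culture the count of 1 became 0 at 40 points, at q under 0.001, in the gene span alone, near gene ends, with at least 2 tiles or at the same coordinates. For losses with long culture the count of 3 became 1 at q under 0.001, near gene ends, with at least 2 tiles, with no opposite tile or at the same coordinates. With only 1 line the 4 counts ranged from 12 to 14, 4 to 11, 2 to 13 and 6 to 7. These settings allow fewer tiles or require fewer lines by construction. At q under 0.001, Dusp7 leaves both counts of losses, since its line 1 tiles have q-values of 0.00327 and 0.00973. Of 69 mean differences per member, line and direction, 40 rest on 1 tile and cannot change with the median, and none can change sign, since each averages tiles of 1 direction. A tile was left for 57 at q under 0.001 and for 48 near gene ends, and 5 values moved by over 1.5 times, all in line 3. Near gene ends the Rasal1 gain was 33.8 points with long culture (56.3 over all its tiles) and 32.6 points with BrafV600E (49.8 over all), and the Rasgrp2 gain and loss with BrafV600E were 27.9 and -81.8 points (43.2 and -53.1 over all). At q under 0.001 the Dab2ip loss with BrafV600E was -27.2 points (-51.9 over all). Depth could not be weighed, since no read counts were given. No paired analysis was possible because the tables are already differences within a line and hold no values per library.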
